A study of Mus musculus with 88 samples.

Results

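The genes described here are 8 enzymes of cholesterol synthesis, Acat2, Hmgcs1, Idi1, Fdps, Fdft1, Sqle, Lss and Cyp51, followed across 26 RNA-seq libraries of mouse embryonic stem cells (ESCs) and mouse embryonic fibroblasts (MEFs). They were chosen by gene symbol, and all 8 were found among the 21942 loci of the deposited expression table, each at 1 locus. The whole table is the set that every test below was adjusted over, after a filter on low values that all 8 genes passed. The series holds 88 samples, of which 62 are outside the RNA table and were not analysed here. Most of these 62 are bisulfite sequencing samples by their labels. The cross of 129X1/SvJ with MSM/Ms, called the MSM cross, gave 10 libraries. A MEF culture labelled 2i MEF (line 15, XX, passage 5 with 1 further passage) gave 1 library. MEFs at passage 1 gave 2 libraries, whose labels conflict on sex. A 2i-S culture (2i line 15, XX, moved to serum and grown for 14 further passages) gave 1 library. The others were 2i ESCs at passage 3 (2 XX and 2 XY lines) and ESCs labelled S at passage 3 (1 XX and 1 XY line). The cross of 129X1/SvJ with C57BL6, called the B6 cross, gave 16 libraries at passage 3, with 2 XX and 2 XY lines in each of a2i, t2i, 2i and serum. In the study's usage, 2i is a medium with an inhibitor of MEK and an inhibitor of GSK3, t2i has the MEK inhibitor titrated down, a2i replaces the MEK inhibitor by one of Src, and S stands for serum with the cytokine LIF. Every line counts as 1 replicate, and MSM line 15 supplied 3 libraries (2i MEF, 2i-S and 2i).

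Cells build cholesterol from acetyl-CoA through mevalonate, isoprenoid pyrophosphates, squalene and lanosterol. When membranes of the endoplasmic reticulum run low in sterol, the transcription factor SREBP2, encoded by Srebf2, leaves the INSIG proteins that hold it back with its escort SCAP, is cleaved, and activates the genes of the whole pathway. Isoprenoids drawn off the same route are used to modify proteins and to make ubiquinone and dolichol.

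Values are deposited RPKM, which by the unit's usual meaning are read counts divided by gene length and by the mapped reads of the library. How the authors scaled them exactly is not stated. RPKM summed to between 624274 and 934309 per library. All 10 pluripotent ESC markers reached 1 RPKM in every ESC library, and all 20 fibroblast markers did so in every MEF library. The B6 serum libraries also held all 20 fibroblast markers at 1 RPKM or more. Their markers summed to 1176 to 1829 RPKM, against 10947 to 12609 RPKM in the MEFs and 23929 RPKM in the 2i MEF library. In the B6 lines in a2i, t2i and 2i the markers summed to 7.33 to 22.8 RPKM. The median marker of a B6 serum library stood at 8.54% to 14.8% of its mean MEF level, which is called the fibroblast share below. The fibroblast share was 0.613% to 2.21% in the MSM S lines and 1.58% in the 2i-S culture. It was 0.0476% to 0.601% in the MSM 2i lines and at most 0.0392% in the other B6 lines. Serum XY line 10 of the B6 cross also held the primitive endoderm marker Gata4 at 16.3 RPKM, against 1.99 to 2.84 RPKM in the other serum lines. The 9 primitive endoderm markers summed to 20.1 to 115 RPKM in B6 serum and to 7.56 to 14.1 RPKM in the other B6 lines, and 8 trophectoderm markers to 94.7 to 200.5 RPKM and to 44.8 to 68.7 RPKM. Their part in the results below was not tested.

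RefSeq promoter sequences (build GRCm38.p6, 250 bases before to 50 after the gene start) were at hand for 5 of the 8 genes: Hmgcs1, Idi1, Lss, Cyp51 and Acat2. The core of the sterol regulatory element, searched as TCACNCCAC on both strands, stood in 1 of these 5 promoters, that of Hmgcs1, and in 1.24% of all 32851 promoters of that length. A shorter form, TCACNNCA, was chosen after the letters had been read. It stood in the promoters of Hmgcs1, where it overlaps the longer motif, and of Cyp51, against 13.8% of all promoters. The CCAAT box stood in 4 of the 5, all but Acat2, against 37.4% of all promoters. Below, 150 bases are shown that end just before the RefSeq gene start or the start of the deposited locus, whichever lies farther upstream, for Hmgcs1, the gene with the longer motif, and for the pair of enzymes that differed most between MEFs and ESCs, with motif matches in capitals (ATTGG is CCAAT on the opposite strand). The stretch shown ends at the RefSeq start for Hmgcs1 and at the start of the deposited locus for Lss and Cyp51, so that the CCAAT of Cyp51, at -29 from its RefSeq start, lies outside it.
Hmgcs1 (chr13:119690201-119690350, plus strand): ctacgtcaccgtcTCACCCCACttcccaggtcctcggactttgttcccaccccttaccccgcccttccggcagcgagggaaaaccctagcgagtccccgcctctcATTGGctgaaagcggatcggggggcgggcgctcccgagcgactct
Lss (chr10:76531437-76531586, plus strand): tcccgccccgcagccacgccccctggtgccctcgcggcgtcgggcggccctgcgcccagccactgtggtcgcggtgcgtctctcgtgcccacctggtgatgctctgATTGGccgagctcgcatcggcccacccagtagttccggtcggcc
Cyp51 (chr5:4104747-4104896, minus strand): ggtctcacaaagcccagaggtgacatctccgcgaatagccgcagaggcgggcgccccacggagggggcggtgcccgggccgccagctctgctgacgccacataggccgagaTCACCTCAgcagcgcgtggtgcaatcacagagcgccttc

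Levels of the 8 genes are shown by library in the plot of RPKM per group. By group mean, either MEF or 2i MEF was highest for all 8 genes, and 2i-S or B6 2i was lowest.

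**Figure D1:**
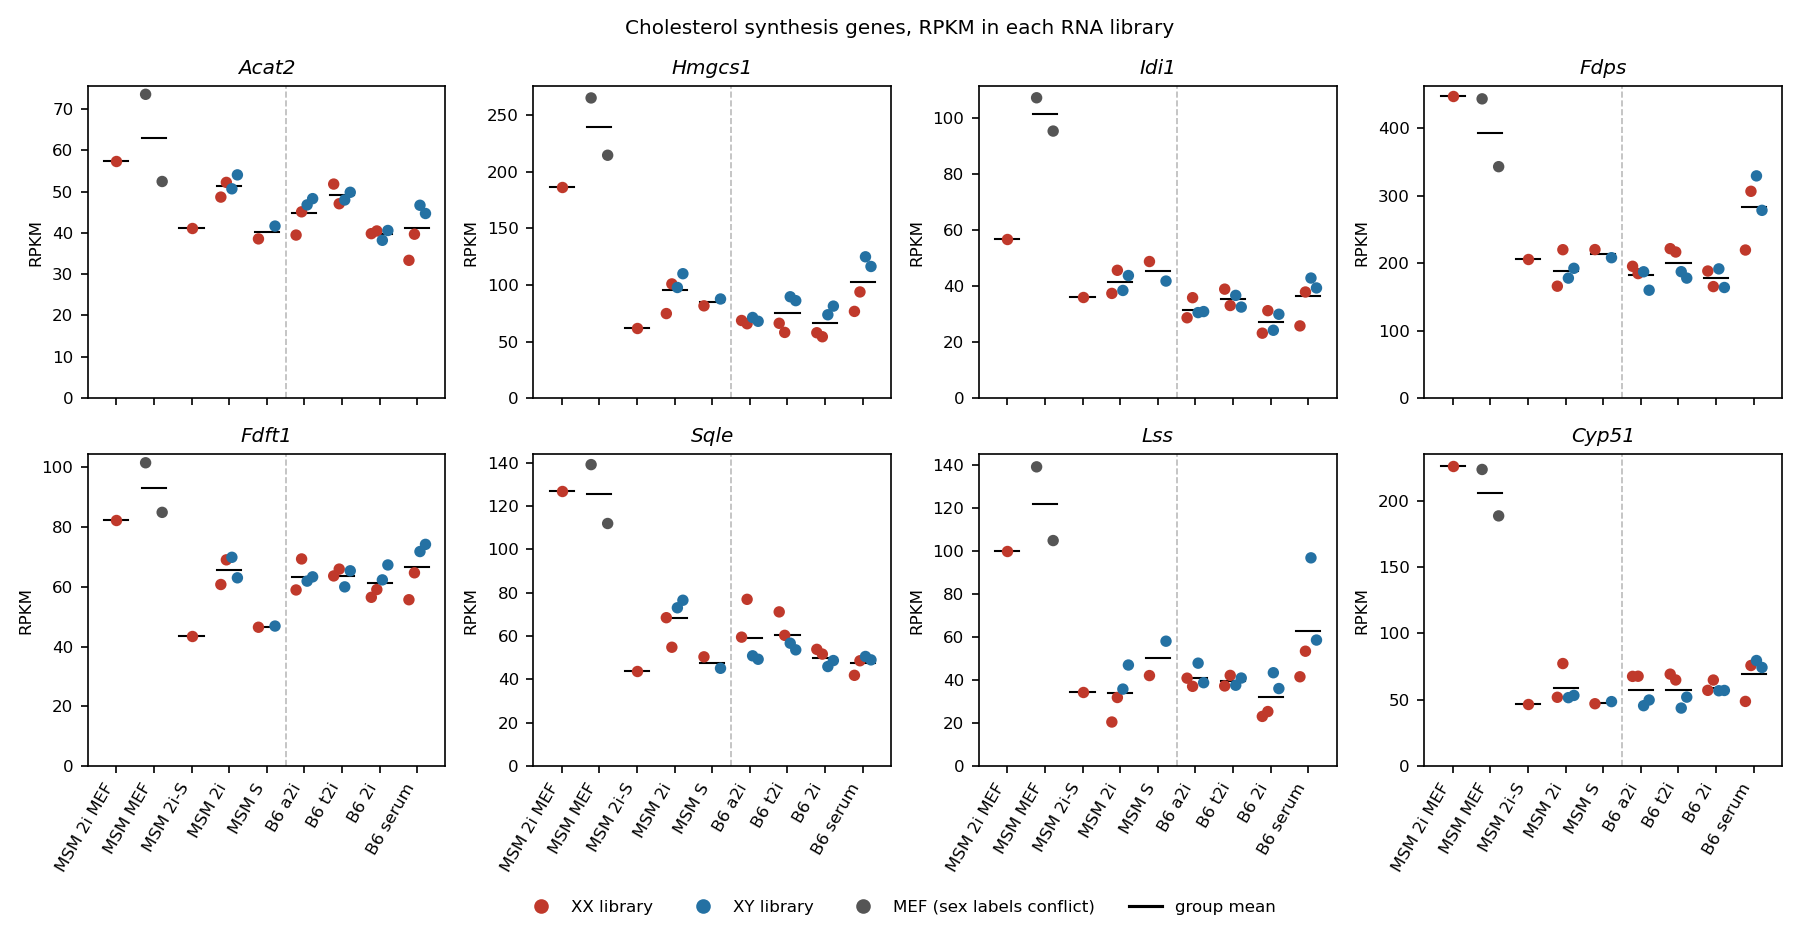
RPKM (linear axis from 0) of each of the 8 genes in every RNA library, by cross and culture, with 1 point per library coloured by sex and a black line at the group mean. MEF and 2i MEF points stand above every ESC point except for Acat2, where MEF 4 lies among the MSM 2i lines. Among ESC groups, B6 serum has the highest mean for Hmgcs1, Fdps, Fdft1, Lss and Cyp51.

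Acat2 (chr17:12942889-12960747, mm10) encodes the cytosolic thiolase that joins acetyl-CoA units. Its mean RPKM was 63.0 ± 14.9 in MEFs, 57.3 in 2i MEF (1 library), 51.4 ± 2.29 in MSM 2i lines and 49.2 ± 2.11 in B6 t2i lines (SD, with n = 2 MEF, 4 MSM 2i, 2 MSM S and 4 per B6 medium, here and for the next genes). The remaining means were 44.9 ± 3.85 in B6 a2i lines, 41.1 ± 5.95 in B6 serum lines, 41.1 in 2i-S (1 library), 40.1 ± 2.19 in MSM S lines and 39.8 ± 1.09 in B6 2i lines. Neighbouring groups in this order overlapped except 2i MEF and MSM 2i.

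Hmgcs1 (chr13:119690461-119708086) encodes the synthase that makes HMG-CoA, a precursor of mevalonate. Mean RPKM of Hmgcs1 stood at 240.0 ± 35.8 in MEFs, 186 in 2i MEF (1 library), 103 ± 21.9 in B6 serum lines and 95.8 ± 15.0 in MSM 2i lines. Below these came 84.6 ± 4.29 in MSM S lines, 75.0 ± 15.3 in B6 t2i lines, 68.4 ± 2.28 in B6 a2i lines, 66.7 ± 12.9 in B6 2i lines and 62.3 in 2i-S (1 library). MEFs, the 2i MEF library and the ESC groups stood apart, and all neighbouring ESC groups overlapped.

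Idi1 (chr13:8885500-8892451) encodes the isomerase that interconverts the isoprenoid pyrophosphates. Its mean RPKM was 101 ± 8.41 in MEFs, 56.7 in 2i MEF (1 library), 45.3 ± 4.93 in MSM S lines and 41.3 ± 4.02 in MSM 2i lines. Next in order were 36.5 ± 7.42 in B6 serum lines, 36.3 in 2i-S (1 library), 35.3 ± 3.04 in B6 t2i lines, 31.5 ± 3.07 in B6 a2i lines and 27.1 ± 4.03 in B6 2i lines. The 2i MEF library lay apart from the MEFs above it and the ESCs below it, and from MSM S downwards neighbours overlapped.

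Fdps (chr3:89093587-89101959) encodes farnesyl pyrophosphate synthase. Mean RPKM of Fdps stood at 448 in 2i MEF (1 library), 393 ± 71.1 in MEFs, 283 ± 47.5 in B6 serum lines and 214 ± 8.49 in MSM S lines. The remaining means were 206 in 2i-S (1 library), 201 ± 21.5 in B6 t2i lines, 189 ± 23.3 in MSM 2i lines, 182 ± 15.3 in B6 a2i lines and 177 ± 14.7 in B6 2i lines. Both fibroblast groups stood apart from the ESCs. B6 serum overlapped MSM S, which lay just above the 2i-S library, and the groups after that overlapped their neighbours.

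Fdft1 (chr14:63145152-63177793) encodes squalene synthase, the first step committed to sterols. Its mean RPKM was 93.2 ± 11.7 in MEFs, 82.3 in 2i MEF (1 library), 66.6 ± 8.32 in B6 serum lines and 65.7 ± 4.47 in MSM 2i lines. Below these came 63.7 ± 2.68 in B6 t2i lines, 63.4 ± 4.37 in B6 a2i lines, 61.3 ± 4.66 in B6 2i lines, 46.7 ± 0.28 in MSM S lines and 43.4 in 2i-S (1 library). The fibroblast groups, MSM S and the 2i-S library each stood apart from their neighbours, and the 5 ESC groups between them overlapped.

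Sqle (chr15:59315076-59331192) encodes squalene epoxidase, a rate-limiting oxidation. Mean RPKM of Sqle stood at 127 in 2i MEF (1 library), 126 ± 19.2 in MEFs, 68.3 ± 9.51 in MSM 2i lines and 60.5 ± 7.64 in B6 t2i lines. Next in order were 59.2 ± 12.7 in B6 a2i lines, 50.1 ± 3.46 in B6 2i lines, 47.8 ± 3.74 in MSM S lines, 47.6 ± 3.85 in B6 serum lines and 43.9 in 2i-S (1 library). The fibroblast groups stood apart from the ESCs, and neighbours overlapped within each kind of cell.

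Lss (chr10:76531587-76557138) encodes the cyclase that makes lanosterol. Its mean RPKM was 122 ± 24.3 in MEFs, 100.3 in 2i MEF (1 library), 62.7 ± 23.9 in B6 serum lines and 50.2 ± 11.3 in MSM S lines. The remaining means were 41.2 ± 4.74 in B6 a2i lines, 39.6 ± 2.44 in B6 t2i lines, 34.7 in 2i-S (1 library), 33.9 ± 10.9 in MSM 2i lines and 32.1 ± 9.5 in B6 2i lines. The fibroblast groups stood apart, as did B6 t2i from the 2i-S library below it, and the other ESC neighbours overlapped.

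Cyp51 (chr5:4081144-4104746) encodes the lanosterol demethylase. Mean RPKM of Cyp51 stood at 226 in 2i MEF (1 library), 206 ± 24.7 in MEFs, 69.6 ± 14.1 in B6 serum lines and 58.9 ± 3.95 in B6 2i lines. Below these came 58.5 ± 12.5 in MSM 2i lines, 57.7 ± 11.7 in B6 a2i lines, 57.5 ± 11.7 in B6 t2i lines, 47.8 ± 1.13 in MSM S lines and 46.7 in 2i-S (1 library). The fibroblast groups stood apart from each other and from the ESCs, and ESC neighbours overlapped down to MSM S, which lay just above the 2i-S library.

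MEFs held more RNA of 7 of the 8 genes than 2i ESCs of the same cross, with Lss and Cyp51 raised most and Acat2 the exception. Lss read 139 and 105 RPKM in MEFs, against 20.6 and 32.0 RPKM in XX and 35.9 and 47.1 RPKM in XY 2i lines. Cyp51 read 223 and 188 RPKM in MEFs, against 51.9 and 77.3 RPKM in XX and 51.6 and 53.3 RPKM in XY 2i lines. For both genes the MEFs and the ESC lines did not overlap. The log2 differences of (RPKM + 1), MEF minus 2i, were 1.86 ± 0.21 for Lss (SE, adjusted p = 9.5e-05) and 1.81 ± 0.18 for Cyp51 (SE, adjusted p = 4.1e-05), from limma with Benjamini-Hochberg adjustment over all genes. In bulk RNA, fewer cells of a type and less RNA per cell cannot be told apart.

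The upstream enzymes followed with smaller differences. Hmgcs1 read 265 and 215 RPKM in MEFs, against 74.7 to 110.0 RPKM in the 4 2i lines, a log2 difference of 1.32 ± 0.16 (SE, adjusted p = 0.00013). Idi1 read 107 and 95.3 RPKM in MEFs, against 37.4 to 45.6 RPKM in 2i lines (1.28 ± 0.14 on the log2 scale, adjusted p = 8.1e-05). Fdps read 443 and 343 RPKM in MEFs, against 166 to 219.9 RPKM in 2i lines (1.05 ± 0.15, adjusted p = 0.0004). Groups did not overlap for any of these 3. Sqle differed by 0.87 ± 0.16 (adjusted p = 0.0015) and Fdft1 by 0.50 ± 0.13 (adjusted p = 0.0089), again without overlap. Without MEF 2, the Fdft1 difference was 0.37 and was not called. Acat2 read 73.5 and 52.4 RPKM in MEFs, against 48.6 to 54.0 RPKM in 2i lines. These ranges overlapped, and the difference was 0.27 ± 0.15 (adjusted p = 0.15). It depended on which MEF library was used, at 0.51 and called (adjusted p = 0.03) without MEF 4 and at 0.03 without MEF 2.

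Of all genes tested, 71.1% were called between MEFs and 2i ESCs and 29.9% were called higher in MEFs, with a median difference of -0.23. The 8 genes had a median difference of 1.16. Scaling moves this comparison as a whole: when RPKM was rescaled to a common sum in every library, the median over all genes was -0.0026 and all 8 genes were called higher in MEFs. Of the other cholesterol pathway genes, 7 of 11 tested were called higher and 2 lower in MEFs. Hsd17b7, a ketosteroid reductase of the demethylation steps, read 51.0 RPKM in both MEFs, against 4.49 to 5.98 RPKM in 2i lines, a log2 difference of 3.03 ± 0.16. Sc5d, the lathosterol desaturase, differed by 2.39 ± 0.15, Msmo1, the sterol methyl oxidase, by 1.57 ± 0.19 and Mvk, mevalonate kinase, by 0.995 ± 0.14. The 2 that fell, named after their values were seen, were the sterol isomerase Ebp, by 0.54, and phosphomevalonate kinase Pmvk, by 0.46. Ebp, which is X-linked, read 77.4 and 60.2 RPKM in MEFs, against 150 and 122 RPKM in XX and 69.5 and 77.6 RPKM in XY 2i lines. The MEFs lay below the XX lines and overlapped the XY lines, and the labels of the MEFs conflict on their sex.

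Sterol sensing and uptake genes were called higher in MEFs in 7 of 11 cases and lower in none. Insig2 differed by 1.76 ± 0.27, Stard4, a cytosolic sterol carrier, by 1.73 ± 0.25 and Scap by 1.59 ± 0.26. Insig1, itself a target of SREBP2, differed by 0.79 ± 0.24. Srebf2 mRNA read 65.0 and 53.1 RPKM in MEFs, against 51.5 to 61.7 RPKM in 2i lines, and its difference was 0.05 ± 0.14 (adjusted p = 0.77). Of 6 sterol efflux genes, Apoe was called lower in MEFs, at -4.80 ± 0.42, and no other was called. Of 10 fatty acid synthesis genes, 5 were called higher in MEFs, led by the desaturases Fads1 at 1.31 ± 0.19, Scd2 at 1.11 ± 0.18 and Fads2 at 1.02 ± 0.24.

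**Figure D2:**
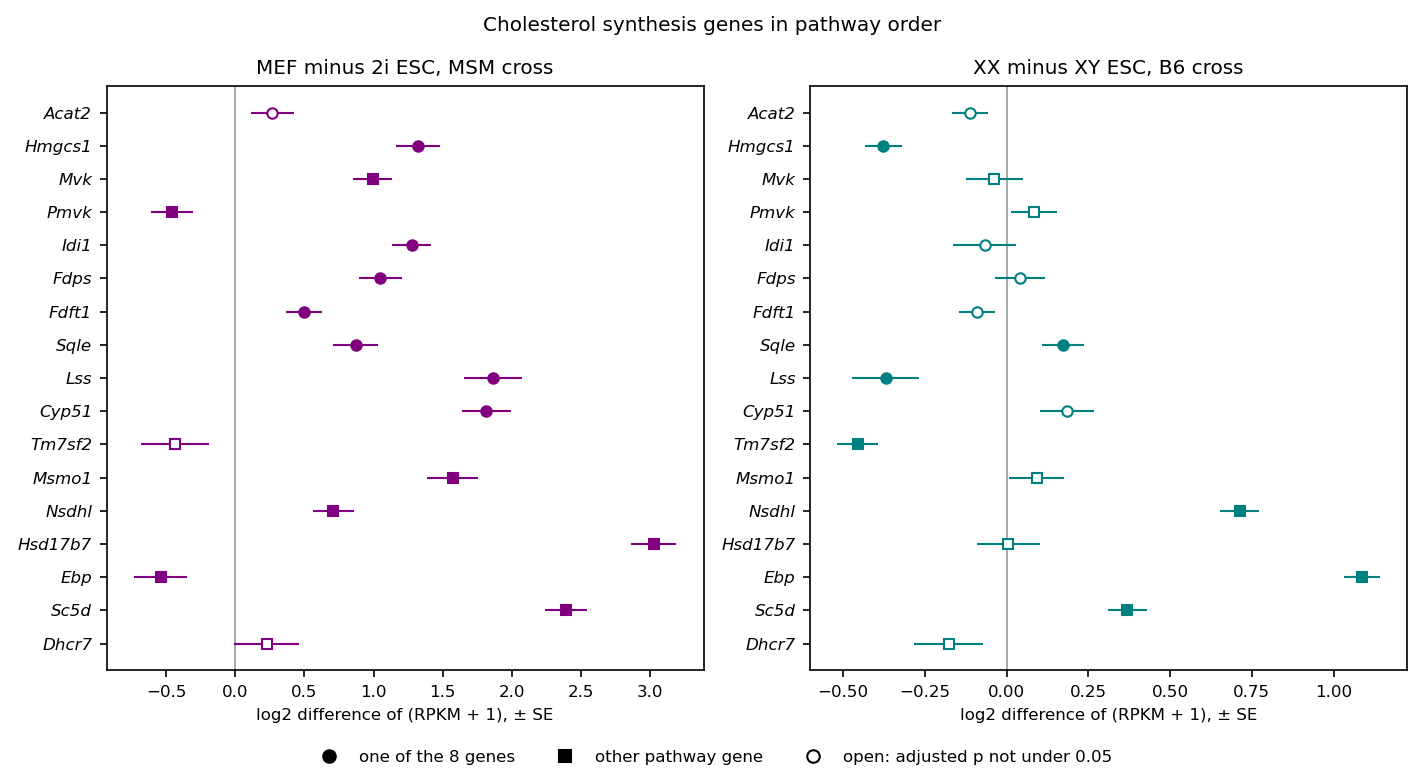
Log2 differences of (RPKM + 1) with SE for 17 cholesterol synthesis genes in pathway order, MEF minus 2i ESC in the MSM cross (left) and XX minus XY ESC in the B6 cross (right). Circles are the 8 genes, squares the other pathway genes, and open symbols did not pass an adjusted p of 0.05. In MEFs most of the pathway lies right of 0, up to 3.03 for Hsd17b7, while by sex Nsdhl and Ebp lie farthest right and Hmgcs1, Lss and Tm7sf2 lie left of 0.

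The 2i MEF culture and the 2i-S culture each had 1 library, which was assumed to vary like the other groups. Between 2i MEF and MEF, limma called 0 of the 8 genes, with 1 at an unadjusted p under 0.05 and 0.454% of all genes called. That gene was Idi1, at 56.7 RPKM in 2i MEF, against 107 and 95.3 RPKM in MEFs, a log2 difference of -0.82 ± 0.20 (SE, adjusted p = 0.16). Between 2i-S and 2i, limma called 0 of the 8, with 2 at an unadjusted p under 0.05 and 1.22% of all genes called. Fdft1 read 43.4 RPKM in 2i-S, against 60.8 to 69.9 RPKM in 2i lines, and Sqle read 43.9 RPKM in 2i-S, against 54.9 to 76.6 RPKM in 2i lines. The 2i-S value lay below every 2i line for both genes. Their differences were -0.57 ± 0.18 (adjusted p = 0.17) and -0.55 ± 0.22 (adjusted p = 0.28). The 2i-S culture was grown from 2i line 15, which is itself among the 2i lines, and the fit did not pair them. From line 15 in 2i to 2i-S, Cyp51 went from 77.3 to 46.7 RPKM and Hmgcs1 from 101 to 62.3 RPKM. Fdft1 went from 69.0 to 43.4 RPKM and Sqle from 54.9 to 43.9 RPKM. Idi1, Acat2 and Fdps also fell, and Lss rose from 32.0 to 34.7 RPKM. Passage cannot be told apart from medium history in the 2i MEF or the 2i-S culture.

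In the B6 cross, 2i lines had less Hmgcs1, Fdps, Lss and Idi1 RNA than serum lines, as deposited. Hmgcs1 read 57.8 and 54.2 RPKM in XX and 73.7 and 81.3 RPKM in XY 2i lines, against 76.6 and 93.8 RPKM in XX and 125 and 116 RPKM in XY serum lines. The groups overlapped only across sexes, and the log2 difference was -0.61 ± 0.08 (SE, adjusted p = 4.2e-05). Fdps read 188, 165, 191 and 164 RPKM in 2i lines, against 219, 306, 329 and 278 RPKM in serum lines. The groups did not overlap, and the difference was -0.66 ± 0.11 (adjusted p = 0.00026). Lss read 23.2 and 25.4 RPKM in XX and 43.5 and 36.1 RPKM in XY 2i lines, against 41.6 and 53.5 RPKM in XX and 97.0 and 58.7 RPKM in XY serum lines. Its difference was -0.92 ± 0.14 (adjusted p = 0.00019), and -0.74 without serum XY line 10, the line high in Gata4, still called.

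Idi1 read 23.2, 31.2, 24.2 and 29.9 RPKM in 2i lines, against 25.8, 37.9, 42.9 and 39.3 RPKM in serum lines. Its groups overlapped through serum XX line 17, and the difference was -0.40 ± 0.14 (adjusted p = 0.029). That call was lost, at -0.27 to -0.37, without 2i XX line 3, 2i XY line 2, serum XX line 46 or serum XY line 10. Cyp51, Fdft1, Acat2 and Sqle had differences of -0.21 ± 0.12, -0.11 ± 0.08, -0.04 ± 0.08 and 0.07 ± 0.09, and none was called. Without serum XX line 17, whose 48.7 RPKM stood below the 74.3 to 79.5 RPKM of the other serum lines, Cyp51 was at -0.37 and was called. In all, 4 of 8 genes were called lower in 2i, where 30.7% of all genes were called lower and 47.6% either way. The 8 had a median difference of -0.31 and all genes one of -0.09.

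Hmgcs1, Fdps and Lss were called lower in a2i and in t2i as well, but these comparisons share their 4 serum lines with that of 2i. Between a2i and serum, 1 of the 8 genes was called higher and 3 lower, with 37.4% of all genes called. Hmgcs1 read 65.7 to 71.3 RPKM in a2i lines, below every serum line, and differed by -0.56 ± 0.08 (adjusted p = 0.00014). Fdps differed by -0.63 ± 0.11 (adjusted p = 0.00058) and Lss by -0.53 ± 0.14 (adjusted p = 0.012). The call of Lss was lost, at -0.46 and -0.44, without a2i XY line 3 or serum XX line 46. Sqle read 59.5 and 77.0 RPKM in XX and 50.9 and 49.3 RPKM in XY a2i lines, against 41.9 and 48.6 RPKM in XX and 50.6 and 49.0 RPKM in XY serum lines. Only the XX lines stood apart, and the difference was 0.29 ± 0.09 (adjusted p = 0.024), lost at 0.20 to 0.30 without any of 5 libraries (a2i XX line 18, a2i XY line 1, and serum lines 17, 10 and 16).

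Between t2i and serum, 2 of the 8 genes were called higher and 3 lower, with 43.8% of all genes called. Hmgcs1, Fdps and Lss differed by -0.45 ± 0.08, -0.49 ± 0.11 and -0.58 ± 0.14 (adjusted p = 0.00062, 0.0028 and 0.0057). Sqle read 53.7 to 71.2 RPKM in t2i lines, above the 41.9 to 50.6 RPKM of serum lines, and differed by 0.34 ± 0.09 (adjusted p = 0.0097). Acat2 read 47.0 to 51.8 RPKM in t2i lines, against 33.3 to 46.7 RPKM in serum lines, and differed by 0.26 ± 0.08 (adjusted p = 0.015). The Acat2 call was lost, at 0.20 to 0.25, when serum XX line 17, t2i XY line 6 or t2i XX line 1 was left out. When RPKM was rescaled to a common sum, neither gene was called against serum in t2i, nor Sqle in a2i.

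Fibroblast RNA moves with serum in these comparisons, and 7 of the 8 genes, all but Acat2, were themselves called higher in MEFs than in MSM 2i lines. For each serum library, the fibroblast share times the mean MEF level gives the RPKM that fibroblasts at the MEF level would supply. For Cyp51 this came to 29.3% to 41.1% of the deposited RPKM of the 4 serum lines. For Idi1 it was 26.7% to 38.2%, for Sqle 25.6% to 38.0% and for Hmgcs1 21.7% to 35.9%. It was 14.2% to 32.0% for Lss, 15.3% to 22.3% for Acat2, 14.3% to 20.2% for Fdft1 and 13.5% to 21.0% for Fdps. In the other B6 lines the amount was at most 0.188% for any of the 8 genes. The MEFs came from the MSM cross and their culture may differ from that of any fibroblasts among the B6 serum cells, which was not tested. A share set against the 2i MEF library, whose fibroblast markers summed to 23929 RPKM, was not computed.

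**Figure D3:**
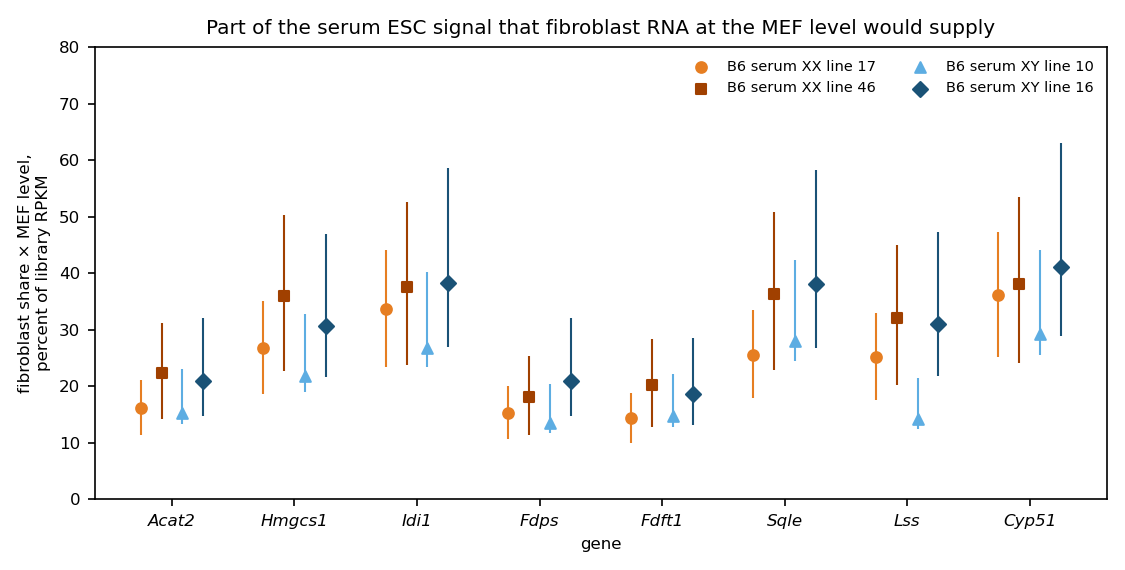
Fibroblast share times mean MEF RPKM as a percent of the deposited RPKM, for each of the 8 genes in the 4 B6 serum libraries. Points use the median marker and vertical lines run from the lower to the upper quartile over the 20 fibroblast markers; Cyp51, Idi1, Sqle and Hmgcs1 have the larger parts and Fdps and Fdft1 the smaller.

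Taking this amount off left Sqle at 30.4 to 36.4 RPKM in the serum lines, below the 45.9 to 53.9 RPKM of 2i lines, and Cyp51 at 31.2 to 56.3 RPKM, below the 56.7 to 64.8 RPKM of 2i lines. The 2i minus serum difference of Sqle became 0.62 ± 0.10 (adjusted p = 0.00024) and that of Cyp51 0.42 ± 0.12 (adjusted p = 0.013). Acat2 was called higher in 2i as well, at 0.25 ± 0.08. Fdps and Lss remained called lower in 2i, at -0.39 ± 0.11 (adjusted p = 0.012) and -0.50 ± 0.18 (adjusted p = 0.033). Hmgcs1, at -0.13 ± 0.08, and Idi1, at 0.18 ± 0.14, were no longer called. After this subtraction 47.8% of all genes were called, and the median over all genes moved to 0.10, against -0.09 as deposited. Here and in the corrected fits below, the share and the MEF level were taken as known. The SEs and p-values of these fits leave out the uncertainty of both.

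Scaling what was left by 1/(1 - share) treats the remainder as ESC RNA alone, although RNA of other cell types was not taken off. This scaling brought the median over all genes back to -0.07. In that fit 43% of all genes were called and 4 of the 8 were, Sqle higher in 2i at 0.44 ± 0.09 (adjusted p = 0.0024) and Fdps, Lss and Hmgcs1 lower at -0.58 ± 0.12, -0.68 ± 0.17 and -0.31 ± 0.08. Thus Sqle stood above serum in 2i under both corrections, and Fdps and Lss stood below it. With the upper quartile of the markers as the share, Fdps and Lss were not called, at -0.26 (adjusted p = 0.08) and -0.27 (adjusted p = 0.29).

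Between t2i and serum, subtraction left 5 of the 8 genes called higher and 0 lower (43.6% of all genes called), and with rescaling 2 higher and 1 lower (37.1% called). Between a2i and serum it left 5 higher and 1 lower (38.4% called), and with rescaling 2 higher and 2 lower (31.6% called). Sqle was called higher in both media under both corrections, at 0.65 to 0.88. Fdps was called lower in a2i under both, at -0.36 and -0.55, and in t2i only with rescaling, at -0.40. Lss was called in neither medium after either correction.

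**Figure D4:**
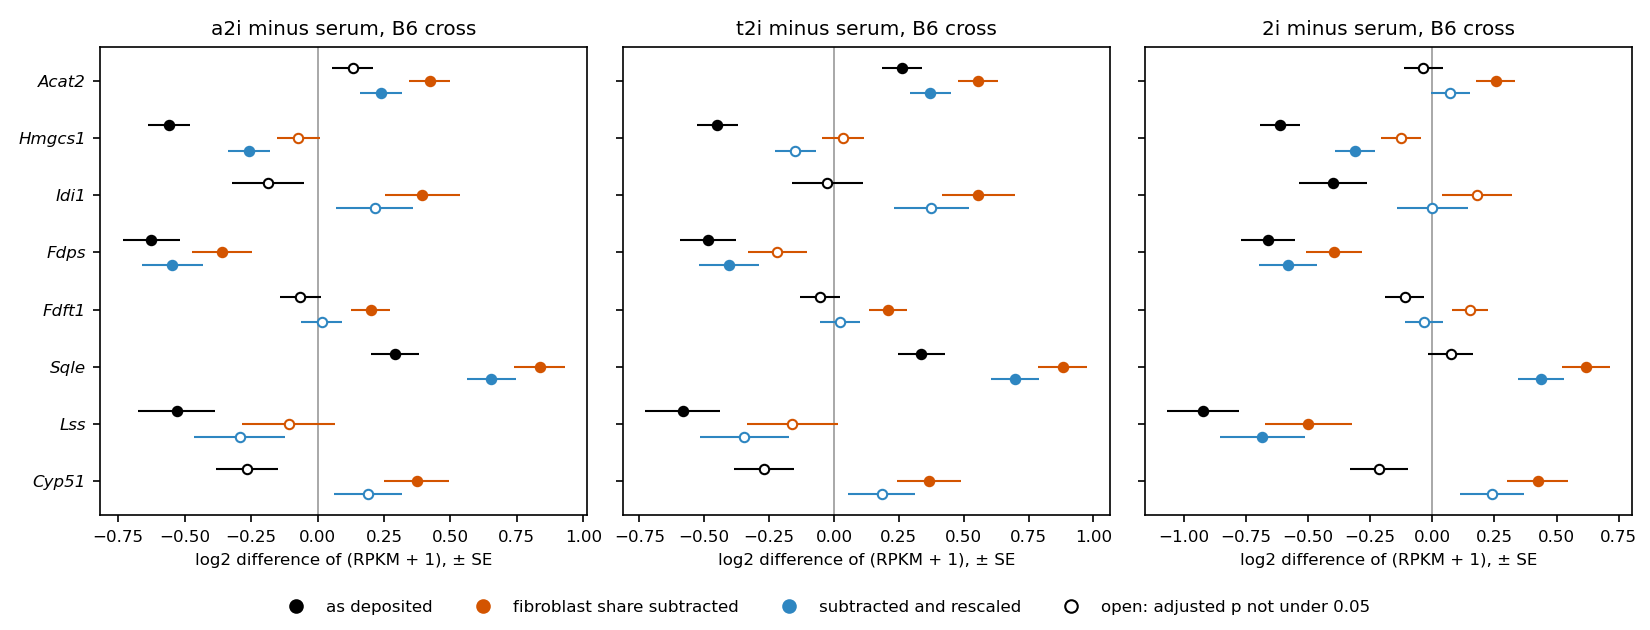
Log2 differences of (RPKM + 1) with SE for a2i, t2i and 2i minus serum in the B6 cross, as deposited (black), with the fibroblast share subtracted (orange), and subtracted and rescaled (blue). Open circles did not pass an adjusted p of 0.05. Every gene moves right on subtraction, which follows from the arithmetic, since nearly all of the amount comes off the serum lines. Sqle lies right of 0 and Fdps left of 0 in all 3 panels under all 3 treatments.

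Among related genes, 2 of the 11 other pathway genes were called higher and 3 lower in 2i than in serum, as deposited, where 47.6% of all genes were called either way. Ebp differed by 0.67 ± 0.08, Hsd17b7 by -0.56 ± 0.14 and Sc5d by -0.35 ± 0.08. Of the sterol sensing and uptake genes, 1 of 11 was called higher and 6 lower. Srebf2 read 51.8, 42.7, 68.0 and 58.0 RPKM in 2i lines, against 62.6, 73.1, 75.6 and 73.4 RPKM in serum lines, a difference of -0.38 ± 0.09 (adjusted p = 0.0028). Srebf1, the relative that favours fatty acid genes, differed by 0.38 ± 0.09 (adjusted p = 0.0045). Scap differed by -0.93 ± 0.26 and Npc1, a lysosomal cholesterol exporter, by -0.48 ± 0.09. Insig1 was at -0.16 ± 0.10 and was not called. Of the fatty acid genes 5 of 10 were called higher, with Scd1, a desaturase, at 0.70 ± 0.11, and Acaca fell by 0.87. The fibroblast share of the serum lines holds for these genes too, and at the MEF level it would supply 8.05% to 11.9% of their Srebf2 signal. After subtraction 6 of the 11 other pathway genes were called higher in 2i and 0 lower, and 5 sterol sensing genes higher and 3 lower. With rescaling these were 4 higher and 0 lower, and 1 higher and 4 lower. Of all genes, 47.8% were called after subtraction and 43% with rescaling. Of the fatty acid genes, 6 were called higher and 1 lower after subtraction, and 5 higher and 1 lower with rescaling.

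Among the media without serum, 1 of the 8 genes was called in any of 3 comparisons. Between t2i and 2i, 1 of 8 genes was called, with 8.08% of all genes called. Acat2 read 51.8, 47.0, 48.0 and 49.8 RPKM in t2i lines, against 39.8, 40.5, 38.2 and 40.6 RPKM in 2i lines. The groups did not overlap, and the difference was 0.30 ± 0.08 (SE, adjusted p = 0.035). That call was lost, at 0.26 to 0.32, in 7 of the 16 fits that left out 1 library, each time a t2i or 2i line other than t2i XX line 3, and also in the fit of the 8 compared libraries alone and when RPKM was rescaled to a common sum. The other 7 genes lay between -0.06 (Cyp51) and 0.37 (Idi1), with SEs of 0.08 to 0.14. The median of the 8 was 0.22 and that of all genes 0.01.

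Between a2i and 2i, limma called 0 of the 8 genes, with 2 at an unadjusted p under 0.05 and 13.8% of all genes called. Lss differed most, at 41.0 and 37.2 RPKM in XX and 47.9 and 38.9 RPKM in XY a2i lines, against 23.2 and 25.4 RPKM in XX and 43.5 and 36.1 RPKM in XY 2i lines. The XX lines did not overlap and the XY lines did, and the difference was 0.39 ± 0.14 (SE, adjusted p = 0.095). Without serum XY line 10 or 16 in the shared fit, the Lss difference was still 0.39 but was called. The Sqle difference was 0.22 and not called, and without a2i XX line 4 it was 0.31 and was called (adjusted p = 0.038). Between a2i and t2i, limma called 0 of the 8, with 0 at an unadjusted p under 0.05 and 1% of all genes called, and the differences ran from -0.16 to 0.05. Outside the 8, Abcg1, a sterol exporter, was called higher in a2i than in 2i at 0.81 ± 0.11 and Apoe at 0.63 ± 0.13, and Ebp fell by 0.33.

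XX lines held less Hmgcs1 and Lss RNA than XY lines of the B6 cross. Hmgcs1 read 66.1 and 58.1 RPKM in XX t2i lines, against 89.6 and 86.1 RPKM in XY t2i lines, and the serum and 2i values above show the same order. In a2i it read 68.6 and 65.7 RPKM in XX lines, against 71.3 and 67.9 RPKM in XY lines. XX and XY lines thus stood apart in serum, 2i and t2i and overlapped in a2i. The Hmgcs1 difference over all 4 media was -0.38 ± 0.06 (SE, n = 8 libraries each, adjusted p = 0.00018). Some line numbers recur across media, and whether they mark the same lines could not be decided. Lss differed by -0.37 ± 0.10 (adjusted p = 0.011), with XX lines below XY lines in 2i and serum and overlap in a2i and t2i. Sqle was called higher in XX lines at 0.17 ± 0.06 (adjusted p = 0.049), and that call was lost, at 0.13 to 0.18, in 13 of the 16 fits that left out 1 library. The XX lines stood above the XY lines for Sqle in a2i, t2i and 2i. In serum they stood below, at 41.9 and 48.6 RPKM in XX lines, against 50.6 and 49.0 RPKM in XY lines. With 41.5% of all genes called by sex, 3 of the 8 were.

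Leaving out the 4 serum libraries, Hmgcs1 and Lss were at -0.34 ± 0.06 (adjusted p = 0.0014) and -0.27 ± 0.08 (adjusted p = 0.022). In those 12 libraries Sqle was at 0.28 ± 0.08 (adjusted p = 0.015), and Cyp51 was also called higher in XX lines, at 0.36 ± 0.07 (adjusted p = 0.0017). Cyp51 read 67.6 and 67.7 RPKM in XX a2i lines, against 45.5 and 49.8 RPKM in XY a2i lines. In t2i it read 69.3 and 64.9 RPKM in XX lines, against 43.7 and 52.0 RPKM in XY lines. In 2i it read 57.1 and 64.9 RPKM in XX lines, against 56.8 and 57.0 RPKM in XY lines. The XX lines stood above the XY lines in these 3 media, by little in 2i. In serum it read 48.7 and 75.8 RPKM in XX lines, against 79.5 and 74.3 RPKM in XY lines, and over all 16 libraries the Cyp51 difference was 0.19 ± 0.08 (adjusted p = 0.09). Without serum XX line 17 it was 0.26 and was called (adjusted p = 0.004).

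Of the 11 other pathway genes, 3 were called higher and 1 lower in XX lines. The X-linked genes Ebp and Nsdhl, a sterol dehydrogenase, differed by 1.09 ± 0.05 and 0.71 ± 0.06. Sc5d differed by 0.37 ± 0.06 and Tm7sf2, a sterol reductase, by -0.46 ± 0.06. Among sterol sensing genes, Mbtps2, the X-linked protease that releases SREBP, differed by 0.81 ± 0.09, Scap by 0.69 ± 0.18 and Insig1 by 0.46 ± 0.07. Srebf2 was at -0.05 ± 0.06 (adjusted p = 0.55). Me1, which supplies NADPH, was higher in XX lines by 1.20 ± 0.06 and Abcg1 was lower, at -0.996 ± 0.08, as was Mylip, a ubiquitin ligase that limits sterol uptake, at -0.40 ± 0.08. These differences are over all 4 media, and some did not hold in each. In serum, Sc5d read 13.9 and 15.4 RPKM in XX lines, below the 16.2 and 15.6 RPKM of XY lines. For Scap, Insig1, Tm7sf2 and Mylip, XX and XY serum lines overlapped, with their means in the opposite order. Insig1 also overlapped in 2i, at 68.7 and 84.8 RPKM in XX and 71.4 and 71.5 RPKM in XY lines.

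Whether the medium effect differs by sex was tested as such. For t2i minus 2i, a2i minus 2i and 2i minus serum, the difference between XX and XY lines was called by limma for 0 of the 8 in each, with 1 of the 8 at an unadjusted p under 0.05 in each. Of all genes, 1.26%, 4.93% and 8.17% were called in these 3 tests. For a2i minus 2i, Hmgcs1 was at 0.41 ± 0.16 (SE, adjusted p = 0.16) and Lss at 0.54 ± 0.29 (adjusted p = 0.3), XX minus XY. For t2i minus 2i, Lss had the largest difference of the 8, at 0.70. For 2i minus serum, Acat2 was at 0.35. Cyp51 was at 0.43 ± 0.23 (adjusted p = 0.29) in that comparison. Without serum XX line 46 it was 0.74 and was called (adjusted p = 0.028), and without serum XX line 17 it was 0.12.

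Of the sterol sensing genes, 4 of 11 were called higher in the same test of a2i minus 2i between the sexes, with 4.93% of all genes called either way. Srebf2 read 71.9 and 67.4 RPKM in XX and 56.4 and 52.7 RPKM in XY a2i lines, against 51.8 and 42.7 RPKM in XX and 68.0 and 58.0 RPKM in XY 2i lines. XX lines stood above XY lines in a2i and below them in 2i, and the sex difference of a2i minus 2i was 0.76 ± 0.17 (adjusted p = 0.03). Srebf1 had the same order, with 83.1 and 84.8 RPKM in XX and 68.4 and 66.8 RPKM in XY a2i lines, against 59.0 and 61.1 RPKM in XX and 98.0 and 73.3 RPKM in XY 2i lines (0.80 ± 0.19, adjusted p = 0.031). Insig1 read 91.5 and 105.9 RPKM in XX and 43.9 and 48.5 RPKM in XY a2i lines, against 68.7 and 84.8 RPKM in XX and 71.4 and 71.5 RPKM in XY 2i lines (0.98 ± 0.20, adjusted p = 0.019).

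**Figure D5:**
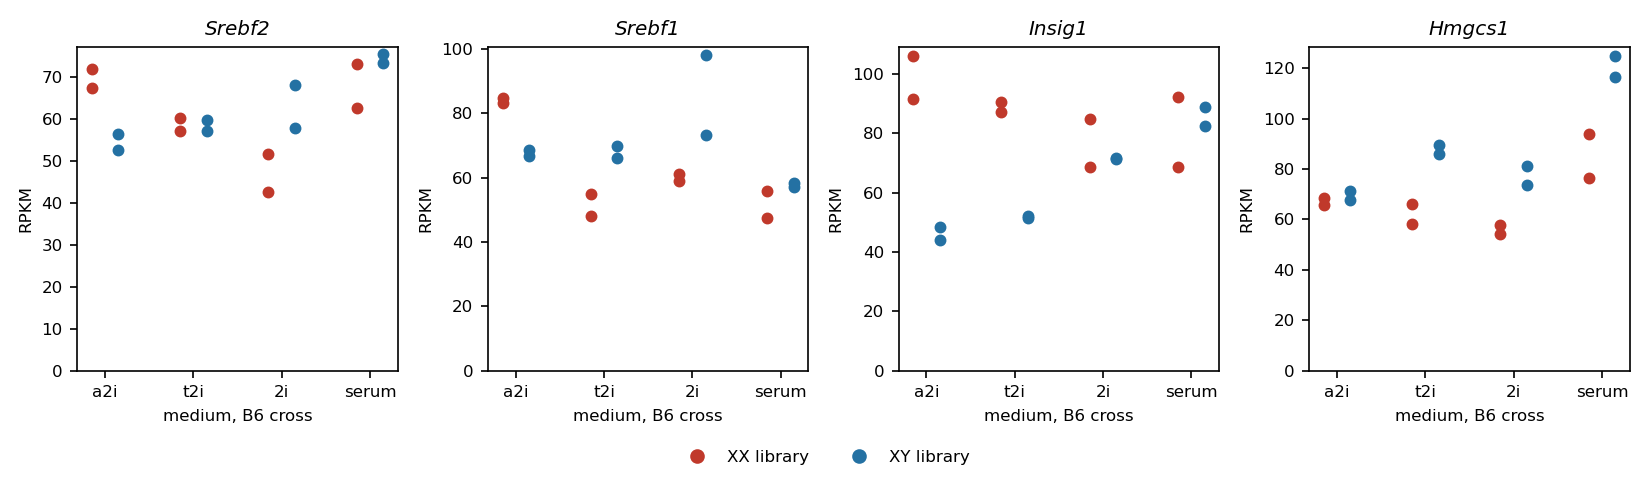
RPKM (linear axis from 0) of Srebf2, Srebf1, Insig1 and Hmgcs1 in the 16 B6-cross libraries by medium, with 1 point per library, XX lines left of XY lines. In a2i the XX lines stand above the XY lines for Srebf2, Srebf1 and Insig1, while for Hmgcs1 they overlap.

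In the MSM cross, 2i lines had more Fdft1 RNA than S lines. Fdft1 read 60.8 and 69.0 RPKM in XX and 69.9 and 63.0 RPKM in XY 2i lines, against 46.5 RPKM in the XX and 46.9 RPKM in the XY S line. The groups did not overlap, and the log2 difference was 0.48 ± 0.13 (SE, adjusted p = 0.041). That call was lost, at 0.44 to 0.51, in 7 of the 10 fits that left out 1 library, and without the sex term. Sqle read 68.5, 54.9, 73.1 and 76.6 RPKM in 2i lines, against 50.4 and 45.2 RPKM in S lines, and Acat2 read 48.6 to 54.0 RPKM in 2i lines, against 38.5 and 41.6 RPKM in S lines. The groups did not overlap for either gene, and the differences were 0.50 ± 0.16 (adjusted p = 0.072) and 0.35 ± 0.15 (adjusted p = 0.16). The Sqle difference was 0.28 without S XY line 12 and 0.72 without S XX line 8, and it was called, at 0.60 (adjusted p = 0.034), without 2i XX line 15. Lss lay the other way, at 20.6 to 47.1 RPKM in 2i lines, against 42.2 and 58.2 RPKM in S lines (-0.59 ± 0.21, adjusted p = 0.092). With 17% of all genes called, 1 of the 8 was.

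Of 10 fatty acid synthesis genes, 5 were called higher in MSM 2i and 0 lower. Scd1 read 44.4, 67.4, 62.5 and 56.2 RPKM in 2i lines, against 16.6 and 8.49 RPKM in S lines, a difference of 2.16 ± 0.30 (adjusted p = 0.0037). Me1 differed by 1.48 ± 0.21, Scd2 by 1.08 ± 0.18 and Fads1 by 1.03 ± 0.19. Msmo1 and Srebf1 were also called higher, at 0.66 ± 0.19 and 0.57 ± 0.14.

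The effect of 2i against serum was set between the crosses in 1 fit of 14 libraries. As deposited, it was more positive in the MSM cross for Hmgcs1, by 0.78 ± 0.17 (SE, adjusted p = 0.013), and for Fdft1, by 0.59 ± 0.14 (adjusted p = 0.017). The Hmgcs1 call was lost, at 0.70, without S XY line 12, and that of Fdft1, at 0.60 and 0.58, without either S line. These were 2 of the 8 genes, where 9.47% of all genes were called more positive and 11.6% either way. The fibroblast share of serum lines differs between the crosses. After subtraction 0 of the 8 were called by limma (5.9% of all genes), 1 having an unadjusted p under 0.05, with Hmgcs1 at 0.34 and Fdft1 at 0.37 (adjusted p = 0.26 and 0.13). With rescaling 1 was (5.73%), Fdft1 at 0.53 (adjusted p = 0.049), and Hmgcs1 was at 0.51 (adjusted p = 0.12). Of the related genes, 3 in the pathway, 2 in sterol sensing and 4 in fatty acid synthesis were called more positive in the MSM cross as deposited, and limma called 0 of each list after either correction. At an unadjusted p under 0.05 there were then 2, 4 and 2 genes of these lists, and 3, 4 and 4 with rescaling. Cross cannot be told apart from fibroblast share in this comparison as deposited.

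Genes outside the listed pathways were ranked by Pearson's r with the mean standardised level of the 8 genes, as a description. Over the 12 B6 libraries in a2i, t2i and 2i, 5 of the 6 highest of 8671 genes were Vapb (0.91), Parp16 (0.91), Lgals3 (0.88), an entry that the table names as a date, 1-Sep (0.88) and Sult4a1 (0.87). Over all 26 libraries, the 6 highest of 9157 genes were Kdelc2 (0.92), Rac1 (0.92), Kcnab1 (0.92), Sdcbp (0.92), Trp53inp2 (0.92) and Ptx3 (0.92). The second ranking spans MEFs and ESCs. Srebf2 had an r of 0.33 over all 26 libraries and 0.51 over the 12. In both rankings libraries share a medium or a sex, so that neither is a ranking over independent conditions.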

How the data were processed

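RNA-seq libraries were made from 26 samples with a stranded mRNA kit, per the labels' protocols. The submitters' processing notes name Cufflinks 2.2.1, Bowtie2 2.2.5, TopHat2 2.1.0 and cutadapt 1.9.1, with the build mm10. What each did is not stated there. The authors deposited RPKM values in 1 table of 21942 loci. The total depth is unknown. From the step between low values, depth relative to 1 library ran from 0.768 to 1.86, an approximate figure, since the step held for 17.1% to 30% of low genes in the other libraries.

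RPKM was taken as log2(RPKM + 1), with genes kept at 1 RPKM or more in at least 2 libraries of a fit. Differences are on this scale, which understates the change of low genes. limma 3.58.1 in R 4.3.3 (empirical Bayes with trend) was fitted to 16 B6 libraries with a mean per medium and sex (8 residual degrees of freedom), to 10 MSM libraries with a mean per culture and a term for XX among ESCs (4), and to 14 libraries in 2i and serum of both crosses with a sex term in each (8). Benjamini-Hochberg adjustment ran over all genes of a fit, and a gene was called at an adjusted p under 0.05. Groups came from the labels, and p-values measure the spread between lines. MEF labels conflict on sex, so MEFs carry none. The procedure was run on simulated data with normal noise and planted log2 changes of 1 and 2. Smaller changes were not simulated.

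The fibroblast share of a library is the median, over 20 fibroblast markers with at least 10 RPKM on average in MEFs, of its RPKM divided by the MEF mean. Share times MEF mean was subtracted with a floor of 0, with and without division by 1 minus the share, and with the lower or upper quartile of the markers. Other alternatives were other pseudocounts and filters, quantile normalization, a common sum of RPKM in every library, other sets of libraries, a replicate block and leaving out each library.

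The 8 genes, the related gene lists and the markers were chosen with earlier results of these data known. The text names the 8 genes, Srebf2, Insig1, up to 4 called genes of each related list with the largest difference, and the 6 genes most correlated with the 8. A fit without the B6 serum libraries was added after the data were seen. Mvd was not analysed here. Some genes that this rule names are not reported here; counts over the related lists include them.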

Additional observations from a re-analysis of the deposited data

Results flagged for a closer look

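Among 50 groups of 4 lines tested for a line far from the others, 3 had one, where chance gives about 1 in 20. All 3 concern Cyp51, at 77.3 RPKM in MSM 2i XX line 15 (51.6 to 53.3 RPKM in the other lines), 64.9 RPKM in B6 2i XX line 4 (56.8 to 57.1 RPKM in the others) and 48.7 RPKM in B6 serum XX line 17 (74.3 to 79.5 RPKM in the others).

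The a2i minus 2i difference was larger in XX than in XY lines of the B6 cross for Srebf2 by 0.76, Srebf1 by 0.80, Insig1 by 0.98, Npc1 by 0.74 and Me1 by 1.05 on the log2 scale. The 2i minus serum difference was lower in XX than in XY lines for Tm7sf2 at -0.94 and Mylip at -1.12. All of these differences between sexes were called by limma after Benjamini-Hochberg adjustment.

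The 2i minus serum difference was more positive in the MSM than in the B6 cross for Hmgcs1 by 0.78, Fdft1 by 0.59, Msmo1 by 0.82, Hsd17b7 by 0.89, Sc5d by 0.77, Scd1 by 1.47, Fads1 by 0.73, Fads2 by 0.86 and Me1 by 0.95, as deposited. Serum lines of the B6 cross had a fibroblast share of 8.54% to 14.8% and S lines of the MSM cross one of 0.613% to 2.21%. After subtraction of that share none of these 9 genes was called by limma, and with rescaling only Fdft1 was, at 0.53.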

How the results depend on the processing

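Of the 144 recomputed counts of called genes other than those leaving out 1 library, 134 stayed within 1.5 times the count as reported and 10 moved. This tally looks at the number alone, not at direction or at which genes were called. The count for t2i minus serum stayed at 5 after subtraction, yet went from 2 higher and 3 lower to 5 higher and 0 lower. The count for t2i minus 2i was 0, against 1, with RPKM rescaled to a common sum and with only the 8 libraries compared. It was 3, against 5, for t2i minus serum after subtraction and rescaling. It was 1, against 3, for XX minus XY with the upper quartile share. For 2i minus S it was 2 with quantile normalization and 0 with no sex term, against 1. For the difference between crosses it was 0 after subtraction of the median, lower or upper quartile share and 1 with rescaling, against 2. The cause was not tested.

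Subtraction turned the sign of some genes against serum that were called before or after it. In 2i these were Idi1 (0.18), Cyp51 (0.42) and Acat2 (0.25), and Idi1 again with rescaling (0.00049). With the upper quartile share they were Hmgcs1 (0.15), Idi1 (0.53), Fdft1 (0.28), Cyp51 (0.83) and Acat2 (0.40). In t2i they were Hmgcs1 (0.037), Idi1 (0.56), Fdft1 (0.21) and Cyp51 (0.37), Idi1 with the lower quartile (0.36), and with the upper quartile Hmgcs1 (0.31), Idi1 (0.91), Fdft1 (0.34), Cyp51 (0.77) and Lss (0.070). In a2i they were Idi1 (0.39), Fdft1 (0.20) and Cyp51 (0.37), and with the upper quartile Hmgcs1 (0.20), Idi1 (0.75), Fdft1 (0.33), Cyp51 (0.78) and Lss (0.12). Other genes turned sign without being called before or after, among them Fdft1 in 2i (0.15).

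Where leaving out 1 library left a group with 1 sample, that sample was assumed to vary like the other groups. Leaving out 1 library gave 3 to 5 called genes for 2i minus serum, 4 to 5 for t2i minus serum, 3 to 4 for a2i minus serum, 2 to 4 for XX minus XY and 6 to 8 for MEF minus 2i. It gave 0 to 1 for t2i minus 2i, a2i minus 2i, 2i minus S and the sex difference of 2i minus serum, 0 to 2 for the difference between crosses, and 0 in each fit for the other 5 comparisons. Quantile normalization moved the median of all genes for 2i minus serum to 0.08 and a common sum moved it to -0.21, against -0.09.

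With line numbers as a replicate block, B6 counts were unchanged (4, 1, 0, 0, 5, 4, 3, 0, 0 and 0, in the order 2i minus serum, t2i minus 2i, a2i minus 2i, a2i minus t2i, t2i minus serum, a2i minus serum, XX minus XY and the sex differences of t2i minus 2i, a2i minus 2i and 2i minus serum). Lines of 1 number in 2i and t2i had deviations correlated at -0.25 (XX 3) and 0.0023 (XY 2 and 6). With 2 lines in a group, XY 2 and XY 6 share 1 value by construction. Lines of 1 number in other media were not compared, so these values cannot decide whether the numbers pair samples. Summing loci of the same name was not run, as no listed gene name repeats.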

Other observations

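Genes that draw isoprenoids from the same route were listed as isoprenoid branches, 8 in all and 8 tested. In MEFs, 3 were called higher and 2 lower than in 2i ESCs, where 29.9% of all genes were called higher and 71.1% either way. Pggt1b, a subunit of the geranylgeranyl transferase, differed by 0.98 ± 0.18 and Nus1, a subunit of the dolichol synthase, by 0.84 ± 0.14 on the log2 scale (SE). Fntb, the beta subunit of the farnesyl transferase, was at -1.73 ± 0.14 and Pdss1, which builds the ubiquinone tail, at -1.10 ± 0.14. In the B6 cross, Pdss2, the partner of Pdss1, was lower in XX than in XY lines at -0.73 ± 0.07 and Coq2, which attaches the tail, at -0.61 ± 0.09. Fntb was higher in XX lines at 0.61 ± 0.06. Against serum, 2i lines had Fntb at 0.49 ± 0.09 and Pdss1 at 0.41 ± 0.12, both called higher, and Coq2 at -0.35 ± 0.13, called lower. Between XX and XY lines 4 of the 8 were called, against 41.5% of all genes, and between 2i and serum 3 of the 8, against 47.6%.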
